A study of Mus musculus with 12 samples.

Results

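The 31 genes described here make cholesterol, sense its level, move it inside the cell, store it or export it. They were picked by symbol from a table of 24394 genes, and all 31 were present: 18 enzymes of cholesterol synthesis, 5 genes of the sterol sensor, 4 genes of intracellular transport and storage, and 4 genes of export and of the sterol-activated receptor LXR. RNA was sequenced from sorted mouse regulatory T cells (Treg cells), the CD4 lymphocytes that hold back other immune cells, of the strain C57BL/6 at 7 weeks of age. The wild-type (WT) group was compared with a group labelled Foxp3CreBatffl/fl (KO), in which a Cre recombinase driven by Foxp3, the transcription factor that defines Treg cells, removes the floxed Batf gene in the cells that express Foxp3. The WT group is labelled only as WT, and whether its mice carried the Cre or the floxed alleles is a point not given in the sources used here. Cells of each genotype were profiled unstimulated or after 48 h of culture with IL-2 (200 U/ml) on plates coated with anti-CD3 and anti-CD28 antibodies (5 µg/ml), which together mimic antigen receptor, costimulatory and growth factor signals. No group had the culture, the IL-2 or the antibodies alone. Their parts in the changes here called the response to stimulation cannot be told apart. Each of the 4 groups held 3 libraries, numbered 1 to 3 in the labels, which do not say whether they came from separate animals. Y-linked transcripts, described below, were in WT libraries 1 and 2 and near 0 in WT library 3, so these did not all share 1 source. For the KO libraries this is not known. The p-values reflect only how these libraries spread, and part of that spread may be technical.

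Cholesterol is built from acetyl-CoA through mevalonate, isoprenoid and squalene intermediates, and the last steps reshape lanosterol into cholesterol. When sterol in the endoplasmic reticulum is low, the escort protein SCAP carries the transcription factors SREBP1 and SREBP2 (genes Srebf1 and Srebf2) to the Golgi, where they are cut and released to switch on the synthesis genes. INSIG proteins hold SCAP back when sterol is plentiful, and oxysterols then activate LXR, which drives export through ABCA1 and ABCG1. T cells are known to turn on sterol synthesis when they are activated and begin to divide, and Batf encodes a lymphocyte transcription factor of the AP-1 family.

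SREBPs bind sterol regulatory elements, usually next to a CCAAT box bound by NF-Y, so promoters (250 bases before to 50 bases after the gene's start, from RefSeq, build GRCm38.p6) were searched on both strands. Of the 31 genes, 25 had at least 1 promoter in that table, and 6 did not (Fdps, Fdft1, Sqle, Stard4, Npc1 and Abcg1). The CCAAT box was in a promoter of 21 of the 25 (84%), against 41.065% of the 27018 genes in the table. The classical sterol element TCACNCCAC was in 1 of the 25 (4%), the gene Hmgcs1, against 1.436% of all genes. An AP-1 letter pattern, TGANTCA, was in 2 of the 25 (8%), Dhcr7 and Msmo1, against 8.975% of all genes. These are letter matches and not measured binding. Sterol elements that differ from TCACNCCAC were not searched for, so a promoter without a match may still hold one. The promoters of the 3 synthesis genes Idi1, Cyp51 and Hmgcs1, which were among those with the largest response to stimulation, and of Soat1, the gene called in both genotype comparisons, are printed 5′ to 3′ on the gene's strand, with the sterol element and the CCAAT box, read on either strand, in capitals. They lie at chr13:8885356-8885655 (plus strand) for Idi1, chr5:4104648-4104947 (minus strand) for Cyp51, chr13:119690101-119690400 (plus strand) for Hmgcs1 and chr1:156474279-156474578 (minus strand) for Soat1.
Idi1: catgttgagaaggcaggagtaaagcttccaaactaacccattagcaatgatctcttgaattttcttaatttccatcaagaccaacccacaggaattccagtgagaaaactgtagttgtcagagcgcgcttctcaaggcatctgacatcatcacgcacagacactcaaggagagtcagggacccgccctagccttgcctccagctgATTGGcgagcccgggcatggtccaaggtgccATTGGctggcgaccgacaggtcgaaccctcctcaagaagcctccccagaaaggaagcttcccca
Cyp51: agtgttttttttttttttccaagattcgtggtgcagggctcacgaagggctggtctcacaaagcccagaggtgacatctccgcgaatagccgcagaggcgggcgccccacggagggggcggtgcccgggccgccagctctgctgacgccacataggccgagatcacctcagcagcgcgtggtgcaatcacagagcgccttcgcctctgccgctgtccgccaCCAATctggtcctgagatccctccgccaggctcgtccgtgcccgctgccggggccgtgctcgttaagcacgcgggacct
Hmgcs1: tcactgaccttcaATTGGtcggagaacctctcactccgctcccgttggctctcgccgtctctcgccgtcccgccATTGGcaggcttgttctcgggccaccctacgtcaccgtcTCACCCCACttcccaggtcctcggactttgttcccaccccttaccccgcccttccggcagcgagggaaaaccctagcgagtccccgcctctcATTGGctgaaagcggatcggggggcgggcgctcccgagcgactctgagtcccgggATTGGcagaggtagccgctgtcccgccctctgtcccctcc
Soat1: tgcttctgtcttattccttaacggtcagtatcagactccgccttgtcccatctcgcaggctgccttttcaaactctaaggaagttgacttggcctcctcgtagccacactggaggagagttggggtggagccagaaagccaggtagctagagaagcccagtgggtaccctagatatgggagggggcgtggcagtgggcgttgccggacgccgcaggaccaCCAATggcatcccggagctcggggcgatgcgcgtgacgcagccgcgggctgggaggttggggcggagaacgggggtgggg
Hmgcs1 held 4 CCAAT boxes and the sterol element, which starts at position -137 from the gene's start. Idi1 held 2 CCAAT boxes, and Cyp51 and Soat1 held 1 each. Lss, not printed, had a larger response than Hmgcs1, and its promoter held 1 CCAAT box and no match to TCACNCCAC.

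Values are RPKM, the reads per kilobase of a gene's exons, scaled to the library's total of reads assigned to genes. Rises and falls between states are therefore changes in a gene's share of a library, and not in amounts per cell. Libraries held 22731823 to 32055383 assigned reads. Every one of the 31 genes was among the 10406 that reached 1 RPKM in at least 3 libraries and were tested, and the fewest reads behind any of their values were 74, for Mylip. Fold changes were estimated with limma from log2(RPKM + 1), a scale on which genes with low values change by too little, and a gene was called when its p-value, adjusted by Benjamini-Hochberg over all genes tested in that comparison, was under 0.05. Batf itself did not overlap between genotypes, at 90.03 to 102.67 RPKM in unstimulated WT and 25.94 to 46.91 in KO, and at 125.33 to 133.95 in stimulated WT and 17.98 to 26.49 in KO. RNA from any exons left in place would count toward the KO values, and the source of the remaining Batf RNA was not tested. The 8 Treg and T cell markers summed to 2250 to 2420 RPKM in unstimulated WT and 2050 to 2080 in KO, with 0 of them at 0. Stimulated libraries summed to 1020 to 1090 in WT and 849 to 893 in KO, so KO sums were lower in both states. After stimulation 2 of the 8 were called higher in KO and 4 lower (75% in total, against 17.6% of all genes). Ctla4 was then at 189.54 to 250.81 RPKM in WT and 46.97 to 55.42 in KO. Y-linked transcripts were present in WT libraries 1 and 2 of both states and at or near 0 in the other 8 libraries (at most 0.174 RPKM in sum). Sex was therefore partly confounded with genotype. Every call below was also fitted without those 4 libraries, where WT library 3 stands alone for its genotype and is assumed to vary like the other groups. That fit calls fewer of all genes in each comparison, so a call lost in it does not by itself mean a smaller difference. These are bulk samples, in which fewer cells of a type and less RNA per cell cannot be told apart.

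After 48 h of stimulation 16 of the 18 enzymes of cholesterol synthesis and 4 of the 5 sterol sensor genes rose in each genotype, while the export genes Abca1 and Abcg1, the lysosomal transporters Npc1 and Npc2, and Mylip fell. In WT, 22 of the 31 genes were called higher and 5 lower, a total of 87.1%, where 79.9% of all tested genes were called. The share called higher was 71.0% against 44.5% of all genes, and the share called lower was 16.1% against 35.4%. In KO, 23 were called higher and 5 lower, a total of 90.3%, against 78.8% of all genes, with 74.2% called higher against 44.3% and 16.1% called lower against 34.6%. The median log2 change of the 31 genes was 0.95 in WT and 0.99 in KO, beside 0.11 and 0.12 over all genes. With library scaling by median ratios, which puts the medians of all genes at 0.015 and 0.017, the medians of the 31 were 0.858 and 0.876.

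The calls of the 2 genotypes overlapped: 21 genes were higher in both, 5 were lower in both, and 0 had opposite calls. The other 5 comprise 3 genes called in 1 genotype only (Mvk, Nsdhl and Nr1h2) and 2 called in neither (Ebp and Insig2). Summed over the 18 enzymes, RPKM went from 310.4, 357.2 and 332.7 in unstimulated WT libraries 1 to 3 to 825.3, 848.1 and 817.0 in stimulated ones. In KO the sum went from 328.7, 362.0 and 335.6 to 1009.2, 819.1 and 868.4. These sums did not overlap between states in either genotype, and stimulated KO library 1 stood above the others of its group. Gene by gene, the states did not overlap for 29 of the 31 genes in WT (93.5%, against 81.8% of all genes) and for 27 in KO (87.1%, against 80.4%).

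**Figure D1:**
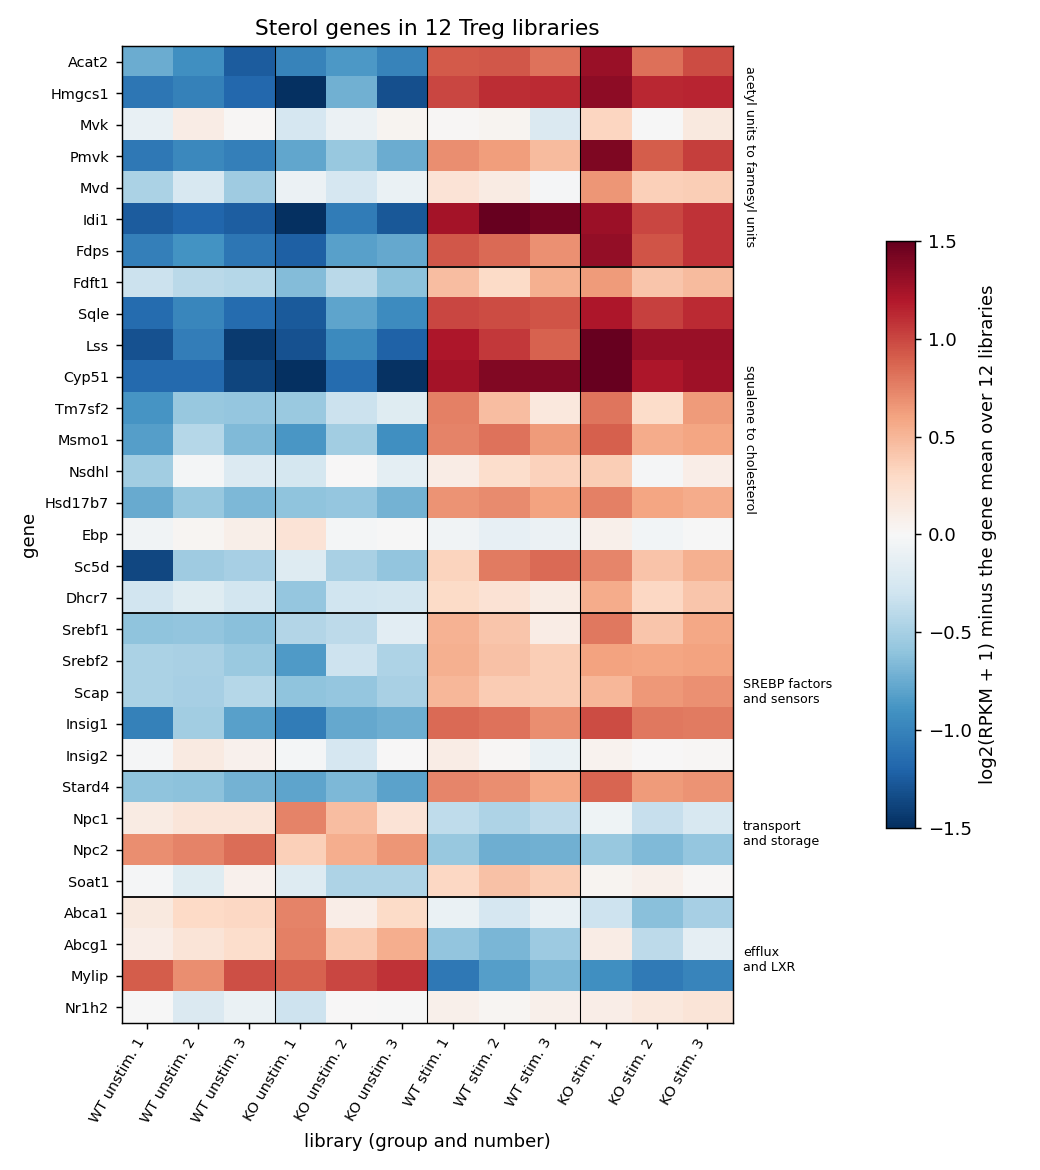
Heat map of the 31 genes (rows, grouped by role) in the 12 libraries (columns, by group and library number). Colour is log2(RPKM + 1) minus the gene's mean over the 12 libraries. Most synthesis and sensor genes are below their mean in the 6 unstimulated libraries and above it in the 6 stimulated ones, and Npc1, Npc2, Abca1, Abcg1 and Mylip show the reverse.

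Of the 7 enzymes that lead from acetyl-CoA to farnesyl diphosphate, 6 rose in WT and 7 in KO. Acat2, the cytosolic thiolase that joins the first acetyl units (chromosome 17, 12943042 to 12960725, minus strand, mm10, as for all gene positions here), had 6.65, 5.80 and 4.43 RPKM in WT libraries 1 to 3 without stimulation, and 5.43, 6.08 and 5.41 in KO. After stimulation it had 23.34, 23.48 and 21.62 in WT and 30.52, 21.76 and 24.42 in KO. Stimulated libraries were all above unstimulated ones, with a log2 change of 1.86 (SE 0.13, limma adjusted p = 1.49e-08) in WT and 1.99 (SE 0.13, adjusted p = 8.32e-09) in KO. Hmgcs1, the synthase that makes HMG-CoA (chromosome 13, 119690351 to 119708260, plus strand), went from 12.66, 13.40 and 11.79 to 57.36, 61.63 and 61.99 RPKM in WT. KO libraries went from 9.02, 16.66 and 10.66 to 72.79, 62.32 and 63.18, so the unstimulated KO libraries spread more widely than the WT ones and the states did not overlap. The log2 change was 2.17 (SE 0.15, limma adjusted p = 1.68e-08) in WT and 2.39 (SE 0.15, adjusted p = 6.99e-09) in KO.

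Idi1, the isomerase that supplies the reactive isoprenoid unit (chromosome 13, 8885606 to 8892396, plus strand), had the largest log2 change of the 31 genes in WT. Its RPKM went from 5.09, 5.32 and 5.14 to 33.39, 39.60 and 38.04 in WT, and from 3.99, 5.97 and 4.97 to 34.25, 27.91 and 29.55 in KO. Group means were 7.14-fold higher after stimulation in WT and 6.14-fold in KO, and the log2 changes were 2.62 (SE 0.11, limma adjusted p = 1.55e-10) and 2.41 (SE 0.11, adjusted p = 4.19e-10). Fdps, the synthase of farnesyl diphosphate (chromosome 3, 89093588 to 89101967, minus strand), was the enzyme with the highest RPKM after stimulation. Its libraries went from 32.01, 35.06 and 30.65 to 126.46, 120.08 and 106.36 in WT and from 27.68, 36.98 and 38.24 to 165.33, 127.88 and 140.93 in KO, with no overlap between states. The log2 change was 1.82 (SE 0.12, limma adjusted p = 9.01e-09) in WT and 2.05 (SE 0.12, adjusted p = 3.08e-09) in KO. Pmvk, the kinase that adds the second phosphate to mevalonate, rose by 1.62 and 1.81 on the log2 scale, and Mvd, the decarboxylase after it, by 0.52 and 0.61. Both are given by library with the genotype comparison. Mvk, the first mevalonate kinase, stayed between 9.10 and 14.01 RPKM in all 12 libraries. Its log2 change was -0.06 (limma adjusted p = 0.647) in WT and 0.25 (adjusted p = 0.0458) in KO, and the KO call was lost in 15 of 23 other fits, with adjusted p up to 0.469 and, with a replicate block by genotype and number, 0.0568. Among these, the fits without 1 of unstimulated WT library 3, unstimulated KO library 1 or 2, stimulated WT library 1 or 2, or stimulated KO library 1 or 3 gave adjusted p of 0.0505 to 0.192.

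Of the 11 enzymes from squalene to cholesterol, 10 rose in WT and 9 in KO. Sqle, the oxygenase that oxidises squalene (chromosome 15, 59315092 to 59331193, plus strand), went from 12.71, 14.57 and 12.69 to 60.47, 59.27 and 57.83 RPKM in WT, and from 11.81, 16.74 and 14.89 to 69.85, 61.05 and 65.35 in KO. The states were far apart in both genotypes, with log2 changes of 2.07 (SE 0.10, limma adjusted p = 5.21e-10) and 2.11 (SE 0.10, adjusted p = 5.27e-10). Lss, which folds the oxidised squalene into lanosterol (chromosome 10, 76531605 to 76557139, plus strand), had the lowest unstimulated level of the 18 enzymes. It went from 2.06, 2.71 and 1.81 to 16.55, 14.84 and 12.98 RPKM in WT, and from 2.06, 2.92 and 2.27 to 20.38, 17.67 and 17.67 in KO. The log2 change was 2.31 (SE 0.13, limma adjusted p = 1.36e-09) in WT and 2.52 (SE 0.13, adjusted p = 6.72e-10) in KO. Cyp51, the demethylase of lanosterol (chromosome 5, 4080674 to 4104697, minus strand), had the largest log2 change in KO on the log2(RPKM + 1) scale. By the ratio of KO group means Lss rose more, from 2.416 to 18.57 RPKM, against 14.69 to 104.3 for Cyp51. Cyp51 libraries went from 17.64, 17.68 and 15.13 to 98.52, 108.58 and 108.86 RPKM in WT, and from 12.23, 17.85 and 14.00 to 116.82, 96.00 and 99.96 in KO, with no overlap between states. The log2 change was 2.58 (SE 0.12, limma adjusted p = 2.14e-10) in WT and 2.76 (SE 0.12, adjusted p = 1.51e-10) in KO.

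The remaining late enzymes moved less. Msmo1, a sterol methyl oxidase, went from 33.4 ± 4.76 to 87.7 ± 5.44 RPKM in WT (mean ± SD, n = 3) and from 30.5 ± 4.92 to 85.0 ± 11.6 in KO. Sc5d, a sterol desaturase, went from 24.1 ± 7.56 to 66.1 ± 12.4 in WT and from 30.6 ± 4.72 to 61.4 ± 6.82 in KO, and Hsd17b7, a 3-keto reductase, from 3.63 ± 0.302 to 10.6 ± 0.393 and from 3.74 ± 0.223 to 10.4 ± 0.877. For these 3 genes the log2 changes were 1.37, 1.45 and 1.32 in WT and 1.45, 0.99 and 1.26 in KO, each called by limma. Tm7sf2, a sterol reductase, rose by 1.13 and 0.92 on the log2 scale. Fdft1, squalene synthase, rose by 0.81 and 1.07, and 20.91% of its exon bases lie over exons of Ctsb on the other strand, so its values hold Ctsb reads if the counting ignored strand, a setting not given in the sources used here. Dhcr7, the reductase of 7-dehydrocholesterol, rose by 0.46 in WT and 0.81 in KO, and its WT call was lost without the libraries with Y-linked transcripts (adjusted p = 0.0733). Nsdhl, a sterol dehydrogenase, rose in WT by 0.49 (limma adjusted p = 0.00326), while its KO change of 0.29 was not called (adjusted p = 0.0564). It was called in KO in 8 of 23 other fits, among them the one with a replicate block by genotype and number (adjusted p = 0.0439). Ebp, the sterol isomerase, had 69.21 to 87.66 RPKM in all 12 libraries, the highest unstimulated level of any enzyme, and was called in neither genotype, with log2 changes of -0.11 (95% interval -0.26 to 0.04) and -0.04 (-0.20 to 0.11).

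Of the 5 sensor genes, 4 rose in each genotype. Srebf2, the SREBP that mainly drives cholesterol synthesis, went from 46.0 ± 1.43 to 90.3 ± 4.87 RPKM in WT and from 45.6 ± 8.53 to 100.2 ± 0.438 in KO (mean ± SD, n = 3). Srebf1, whose products mainly drive fatty acid synthesis, went from 19.3 ± 0.266 to 38.5 ± 5.65 in WT and from 23.7 ± 2.63 to 46.0 ± 6.16 in KO. Scap went from 23.0 ± 0.599 to 43.4 ± 2.14 and from 21.6 ± 1.02 to 49.7 ± 3.38. On the log2 scale these changes were 0.96, 0.95 and 0.89 in WT and 1.14, 0.93 and 1.16 in KO. Both INSIG genes were measured, and they parted. Insig1, itself a target of SREBP, rose by 1.57 (SE 0.12, limma adjusted p = 2.82e-08) in WT and 1.70 (SE 0.12, adjusted p = 1.39e-08) in KO, from 16.94 to 24.86 RPKM over the unstimulated libraries to 59.33 to 72.04 over the stimulated ones. Insig2 stayed between 8.10 and 10.94 RPKM in all 12 libraries, with log2 changes of -0.05 (95% interval -0.24 to 0.14) in WT and 0.12 (-0.07 to 0.30) in KO.

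The 4 transport and storage genes split evenly. Stard4, a carrier that moves cholesterol between membranes, rose by 1.32 in WT and 1.48 in KO on the log2 scale, from 13.27 to 15.33 RPKM over the unstimulated libraries to 36.22 to 44.67 over the stimulated ones. Soat1, the acyltransferase that stores cholesterol as esters, rose by 0.43 and 0.42, and its WT call was lost without the libraries with Y-linked transcripts (limma adjusted p = 0.117). Npc2, the soluble lysosomal protein that hands cholesterol to NPC1, had the highest unstimulated level of the 31 genes, and fell from 145.6 ± 7.83 to 53.3 ± 3.35 RPKM in WT and from 123.4 ± 13.2 to 55.9 ± 2.02 in KO (log2 changes -1.43 and -1.12, SE 0.08 for both, limma adjusted p = 1.45e-09 and 1.79e-08). Npc1, its membrane partner, fell from 15.8 ± 0.411 to 10.2 ± 0.36 in WT and from 20.0 ± 3.92 to 11.9 ± 1.27 in KO. Its log2 changes were -0.58 and -0.69, and the WT call was lost without the libraries with Y-linked transcripts (adjusted p = 0.0631).

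Among the 4 export and LXR genes, 3 fell in each genotype. Mylip, an LXR-induced ubiquitin ligase that marks lipoprotein receptors for degradation, went from 6.66, 5.63 and 7.00 to 0.95, 1.31 and 1.56 RPKM in WT, and from 6.56, 7.20 and 7.71 to 1.16, 0.97 and 1.07 in KO. Its log2 change was -1.71 (SE 0.11, limma adjusted p = 9.57e-09) in WT and -1.98 (SE 0.11, adjusted p = 2.56e-09) in KO, the largest fall of the 31 genes. Abcg1, an exporter of cholesterol, fell by 0.79 in WT and by 0.70 in KO. Abca1, the other exporter, was at 1.29 to 2.58 RPKM over the unstimulated libraries and at 0.39 to 1.00 over the stimulated ones. Its log2 change was -0.41 (limma adjusted p = 0.023) in WT and -0.85 (adjusted p = 0.000143) in KO. The WT call of Abca1 was lost without unstimulated WT library 2 (adjusted p = 0.061), unstimulated WT library 3 (0.0647), stimulated WT library 2 (0.077) or the libraries with Y-linked transcripts (0.243). Nr1h2, which encodes the receptor LXRβ itself, rose in KO by 0.26 (limma adjusted p = 0.0139), while its WT change of 0.17 was not called (adjusted p = 0.0739). The KO call was lost without unstimulated KO library 1 (adjusted p = 0.0704), without both KO libraries numbered 1 (0.0681) and with median-ratio scaling (0.151).

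Markers of other cell types were also lower after stimulation, beside the falling transport and export genes. The 14 myeloid markers summed to 32.7 to 42.1 RPKM in unstimulated WT and 24.5 to 26.9 in KO, and to 3.10 to 3.68 in stimulated WT, with C1qa, C1qb, C1qc, Siglech and Itgax at 0, and 0.964 to 2 in KO, with Csf1r, C1qa, C1qb and Siglech at 0. The 8 B cell markers summed to 38.6 to 45.6 in unstimulated WT and 44.1 to 91.7 in KO, and to 3.10 to 4.62 and 3.88 to 8.25 in the stimulated groups. The sums of CD8 T cell (2 genes), NK cell (4 genes) and stromal or epithelial markers (5 genes) were also lower, at most 18.1, 7.65 and 50.4 RPKM unstimulated and at most 5.84, 1.6 and 17.8 stimulated. Single genes did not all follow these sums. For example, Cd8a overlapped between states, as did Eomes in KO and, at 0.25 RPKM or less, Col1a1 and Pdgfrb in WT. Ebf1, of the B cell list, had a mean of 0.112 RPKM in unstimulated WT and 0.271 in stimulated WT. Epcam rose by 0.66 in WT and 1.14 in KO on the log2 scale while Pecam1 changed by -2.39 and -2.04. Of the 8 myeloid markers tested, 8 fell in KO and 6 in WT, where Cd68 (0.21, limma adjusted p = 0.197) and Xcr1 (-0.24, 0.0504) were not called. Their part in the falls of Npc1, Npc2, Abca1, Abcg1 and Mylip was not tested.

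**Figure D2:**
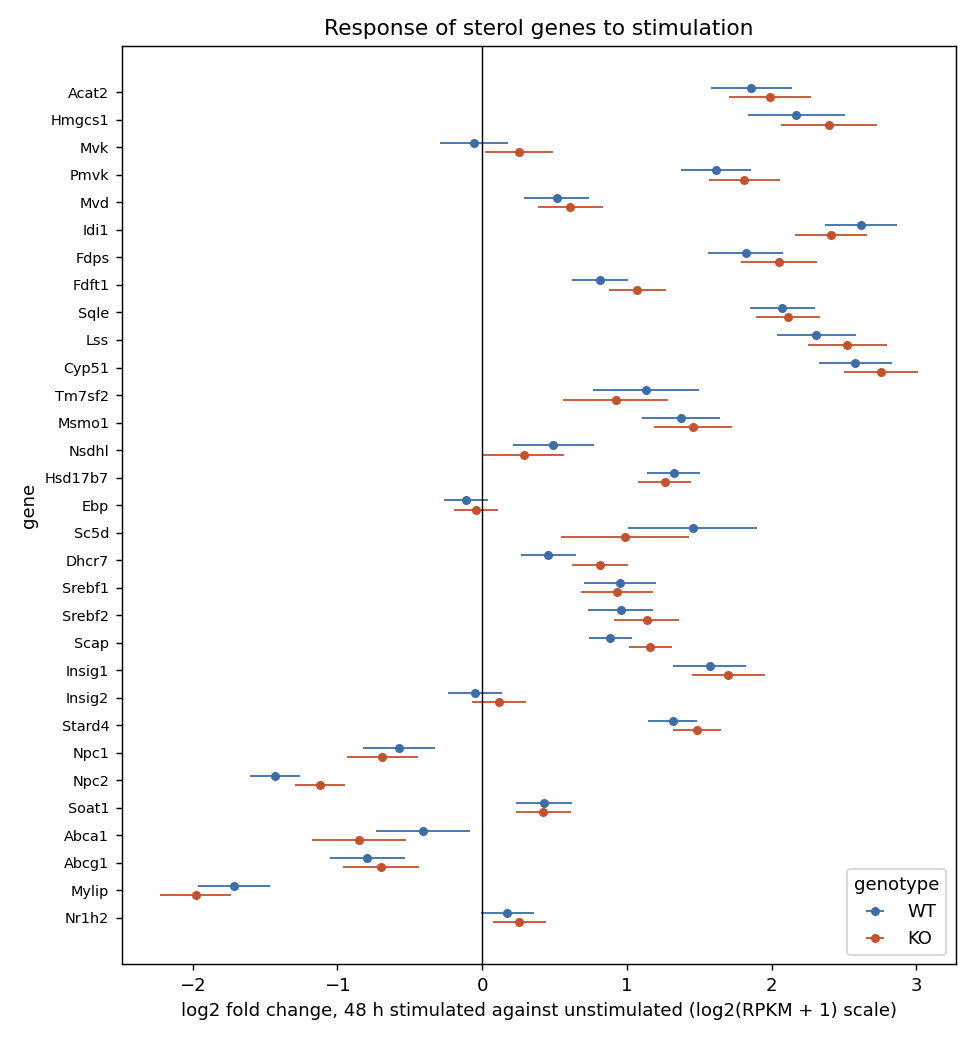
Log2 fold change of each of the 31 genes from unstimulated to stimulated (horizontal axis, limma estimate on log2(RPKM + 1)), in WT and KO, with 95% intervals. The synthesis genes reach 2.62 in WT (Idi1) and 2.76 in KO (Cyp51), Mylip reaches -1.71 and -1.98, and the intervals of the 2 genotypes lie close together for most genes.

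Whether loss of Batf altered the response was tested as the KO response minus the WT response. Of the 31 genes, 0 were called by limma, where 4.62% of all genes were called, and 0 were called in each of the 22 other fits of this term, limma-voom on the reads included. At an unadjusted limma p under 0.05 there were 3 genes (9.68%, against 19.5% of all genes), all with the KO response above the WT response by 0.28 (Scap), 0.36 (Dhcr7) and 0.31 (Npc2) on the log2 scale. For 30 of the 31 genes the 95% interval of the difference lay within 1 log2 unit of 0, and for 15 within 0.5. The exception was Sc5d, at -0.47 (95% interval -1.09 to 0.16), whose unstimulated WT libraries were at 15.36, 28.13 and 28.77 RPKM. The difference was positive for 21 genes and negative for 10, with a median of 0.09 beside 0.02 over all genes. This median was 0.034 without stimulated KO library 1 and -0.011 without both KO libraries numbered 1. The 3 genes called in 1 genotype only had differences of 0.31 for Mvk (adjusted p = 0.288), -0.20 for Nsdhl (0.583) and 0.08 for Nr1h2 (0.769), so a difference between the genotypes was not shown for any of them.

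Between genotypes the sterol genes stood close together without stimulation. By limma, 0 of the 31 genes were called higher in KO and 1 lower (3.23%), where 10.2% of all tested genes were called, 4.35% higher and 5.83% lower. Over all genes this was 453 higher and 607 lower, or 680 and 508 with median-ratio scaling. At an unadjusted limma p under 0.05 there were 7 (22.6%, against 26.4% of all genes), the other 6 being Pmvk (log2 difference 0.32), Mvd (0.27), Srebf1 (0.28), Npc1 (0.31), Abcg1 (0.37) and Npc2 (-0.24). The libraries of the 2 genotypes did not overlap for 7 genes (22.6%, against 27.9% of all genes). Pmvk, Tm7sf2, Srebf1, Npc1 and Abcg1 had higher values in KO, a direction seen for 12.4% of all genes, and Npc2 and Soat1 had lower ones, seen for 15.5%. The 95% interval of the log2 difference lay within 0.5 of 0 for 24 of the 31 and within 1 for all 31, and the median difference was 0.02, beside -0.02 over all genes. With median-ratio scaling, 3 of the 31 (Pmvk, Npc1 and Abcg1) were called higher in KO and 0 lower. The median difference was then 0.055, beside 0.018 over all genes.

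After stimulation 3 of the 31 genes were called higher in KO (Pmvk, Mvd and Abcg1) and 1 lower (Soat1), a total of 12.9%, where 17.6% of all genes were called. The share called higher was 9.68% against 7.76% of all genes, and the share called lower 3.23% against 9.81%. At an unadjusted limma p under 0.05 there were 10 (32.3%, against 33.3% of all genes), and the 6 of these that were not called were Idi1 (log2 difference -0.27), Fdps (0.29), Lss (0.31), Dhcr7 (0.22), Srebf1 (0.25) and Scap (0.19). Libraries did not overlap for 15 genes (48.4%, against 41.8% of all genes), 13 of them with higher values in KO (41.9%, against 19.7% of all genes) and 2 with lower ones (6.45%, against 22.1%). The median log2 difference was 0.10, beside 0.00 over all genes, and 0.052 without stimulated KO library 1. The 95% interval lay within 0.5 of 0 for 21 of the 31 and within 1 for all 31.

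**Figure D3:**
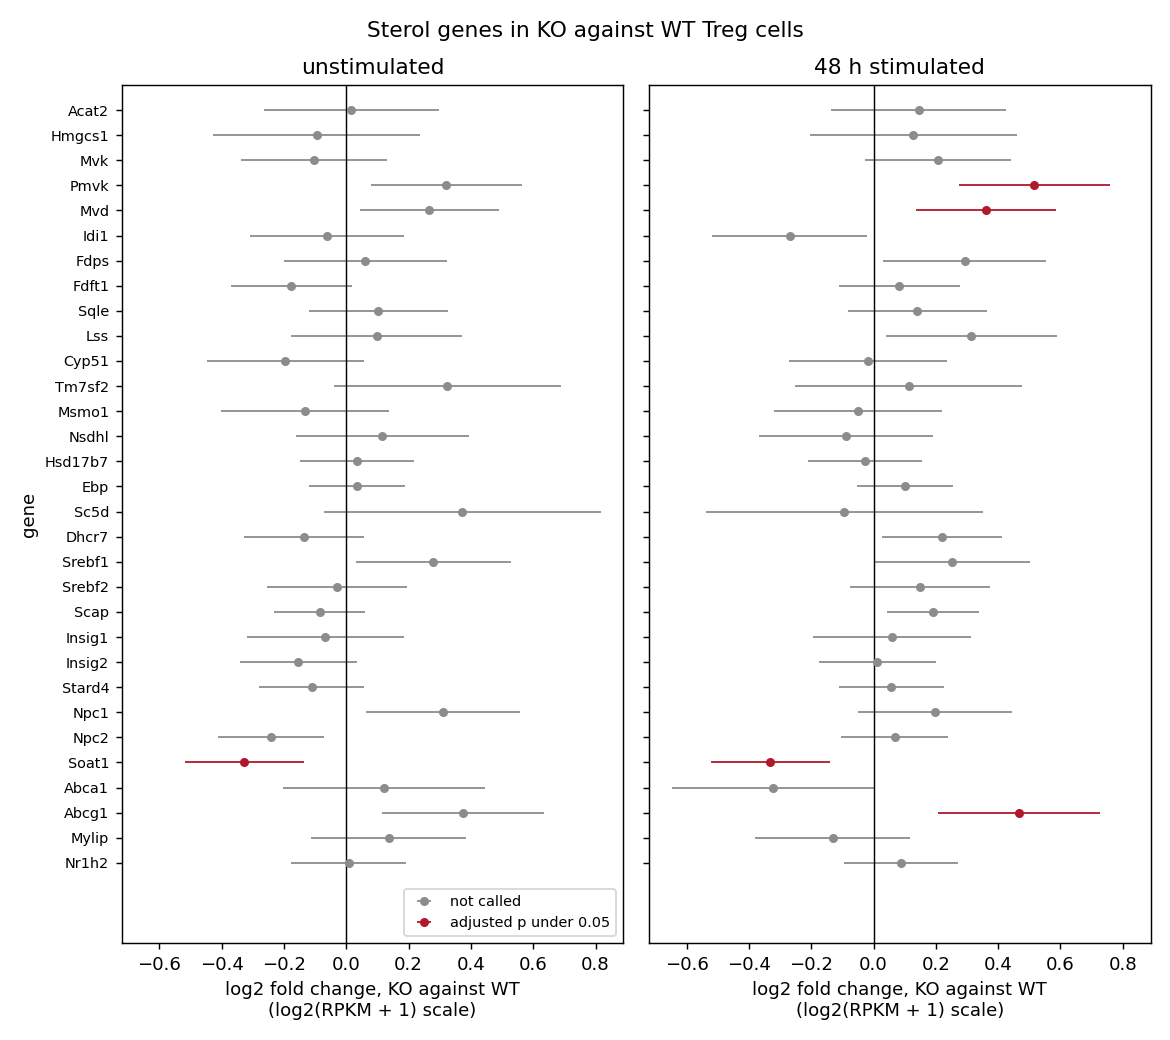
Log2 fold change of KO against WT for each of the 31 genes (horizontal axis, limma estimate on log2(RPKM + 1)) with 95% intervals, unstimulated and stimulated in separate panels, genes called at an adjusted p under 0.05 in red. Only Soat1 (-0.33) is called without stimulation, and Pmvk (0.52), Abcg1 (0.47), Mvd (0.36) and Soat1 (-0.33) are called with it.

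Pmvk (chromosome 3, 89459118 to 89469009, plus strand) had 10.65, 11.59 and 11.08 RPKM in unstimulated WT and 13.28, 15.54 and 13.64 in KO. Stimulated libraries had 38.72, 36.97 and 32.94 in WT and 63.81, 44.95 and 49.30 in KO. KO libraries were above WT libraries in both states, and stimulated KO library 1 was the highest of all. The log2 difference was 0.32 (SE 0.11, limma adjusted p = 0.0882) unstimulated and 0.52 (SE 0.11, adjusted p = 0.0072) stimulated, and the stimulated call held in all 22 other fits.

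Mvd (chromosome 8, 122433596 to 122443422, minus strand), which acts on the product of Pmvk, had 13.06, 15.45 and 12.46 RPKM in unstimulated WT and 17.34, 15.29 and 17.13 in KO, where 1 KO library fell within the WT range. After stimulation it had 21.35, 20.20 and 18.22 in WT and 29.89, 23.88 and 24.07 in KO, with no overlap. The log2 difference was 0.27 (SE 0.10, limma adjusted p = 0.123) unstimulated and 0.36 (SE 0.10, adjusted p = 0.0305) stimulated. The stimulated call was lost without stimulated WT library 2 (adjusted p = 0.074), stimulated WT library 3 (0.13) or stimulated KO library 1 (0.116), without the libraries with Y-linked transcripts (0.0637) and without a filter on low values (0.0591). The log2 difference was 0.26 without stimulated KO library 1, 0.48 without the libraries with Y-linked transcripts and 0.36 without the filter.

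Abcg1 (chromosome 17, 31057694 to 31117981, plus strand) had 14.58, 15.60 and 16.33 RPKM in unstimulated WT and 23.40, 17.99 and 20.06 in KO. With stimulation these values were 8.64, 8.01 and 8.91 in WT and 14.70, 10.00 and 12.19 in KO. KO libraries were above WT ones in both states while the gene fell with stimulation in both genotypes. The log2 difference was 0.37 (SE 0.12, limma adjusted p = 0.0673) unstimulated and 0.47 (SE 0.12, adjusted p = 0.0183) stimulated. The stimulated call was lost without stimulated WT library 2 (adjusted p = 0.0716), stimulated KO library 1 (0.0712) or stimulated KO library 3 (0.0596), with the Y-linked transcripts as a covariate (0.0758) and without the 4 libraries that hold them (0.202). Abca1, the other exporter, did not follow it: stimulated KO libraries had 0.72, 0.39 and 0.52 RPKM and WT ones 1.00, 0.80 and 0.98 (log2 difference -0.32, limma adjusted p = 0.151). Cd79b, the B cell marker with the highest RPKM, was, like Abcg1, highest in KO library 1 in both states. It had 65.81, 31.43 and 33.78 RPKM in unstimulated KO (25.67 to 27.16 in WT) and 6.24, 2.35 and 2.94 in stimulated KO (1.65 to 2.20 in WT). Of the 5 B cell markers tested, 0 were called between genotypes in either state. Their part in the Abcg1 difference was not tested.

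Soat1 (chromosome 1, 156428108 to 156474328, minus strand) was the only gene of the 31 called in both states. It had 14.07, 12.39 and 14.88 RPKM in unstimulated WT and 12.30, 10.07 and 10.02 in KO, where the lowest WT library and the highest KO library were next to each other. Stimulated values were 17.97, 19.75 and 18.77 in WT and 14.73, 15.04 and 14.47 in KO, a clear gap. The log2 difference was -0.33 in both states (SE 0.09 for both, limma adjusted p = 0.0334 unstimulated and 0.0219 stimulated). The 14 myeloid markers also summed to less in KO than in WT libraries in both states (24.5 to 26.9 against 32.7 to 42.1 RPKM unstimulated and 0.964 to 2 against 3.10 to 3.68 stimulated). The largest part of the stimulated sums was the single gene Cd68, at 2.76, 2.73 and 3.25 RPKM in WT and 0.99, 1.00 and 0.63 in KO. Of the 8 myeloid markers that were tested, 5 were called lower and 1 higher (Xcr1) without stimulation, and 1 lower (Cd68) with it. Their part in the Soat1 difference was not tested. Neither call was firm. The unstimulated one was lost without unstimulated WT library 1 (adjusted p = 0.103) or 3 (0.132), unstimulated KO library 2 (0.0713) or 3 (0.103), or stimulated KO library 3 (0.0515). It was also lost without the libraries with Y-linked transcripts (0.189, log2 difference -0.43), with a term for those transcripts (0.0664, -0.39), with median-ratio scaling (0.0527), with a replicate block by number (0.0533) and over the 6 unstimulated libraries alone (0.113). The stimulated one was lost without stimulated WT library 2 (0.0854) or 3 (0.0629), stimulated KO library 1 (0.0557), 2 (0.0539) or 3 (0.0797), or the libraries with Y-linked transcripts (0.135), with log2 differences from -0.35 to -0.30.

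**Figure D4:**
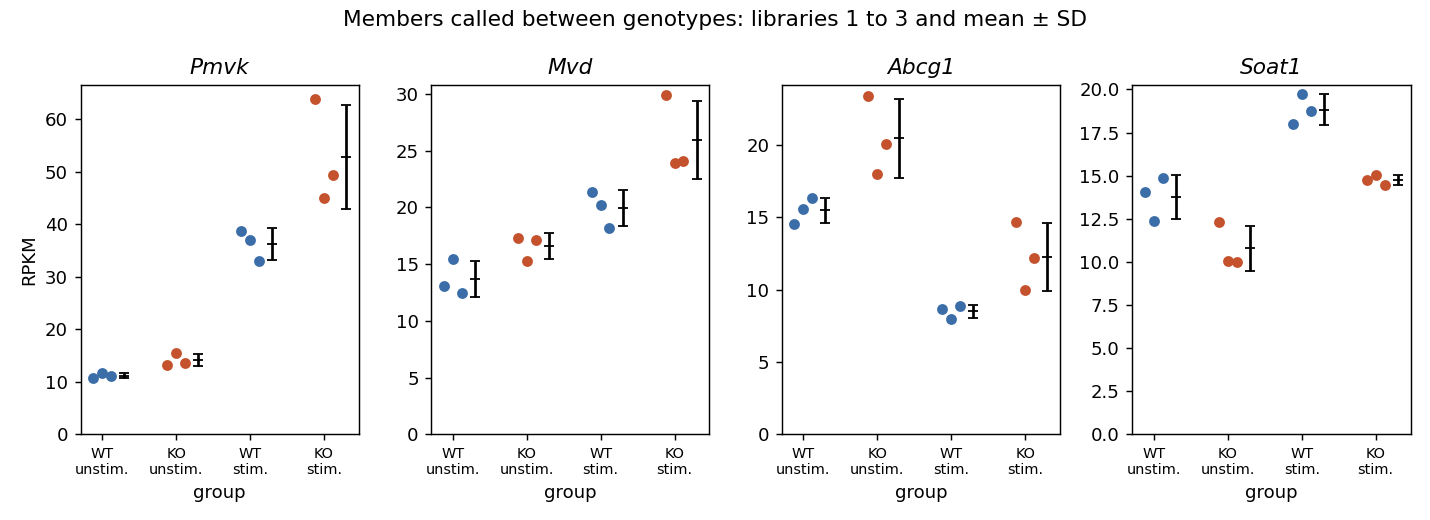
RPKM of Pmvk, Mvd, Abcg1 and Soat1 (vertical axes) in each of the 12 libraries, by group, with the mean and SD of the 3 libraries of a group. Stimulated KO libraries lie above stimulated WT ones for Pmvk, Mvd and Abcg1 and below them for Soat1, and KO library 1 is the highest of its group at 63.81 RPKM for Pmvk, 29.89 for Mvd and 14.70 for Abcg1.

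Within groups, the synthesis genes were high or low together in single libraries. Stimulated KO library 1 had the highest value of its group for 18 of the 18 enzymes, where it was highest for 41.6% of all tested genes, and again for 18 of 18 with median-ratio scaling, where it was highest for 31.1%. Stimulated KO library 2 was the lowest of its group for 16 enzymes (35.9% of all genes), unstimulated KO library 1 the lowest for 12 (29.4%) and unstimulated WT library 2 the highest for 14 (31.1%). Without both KO libraries numbered 1, an alternative chosen after their values were seen, 3 genes were called higher in stimulated KO cells and 3 lower, and Mvd was no longer called (limma adjusted p = 0.114). The part of these libraries in the genotype differences of Abcg1 and Mvd is given by the fits without each library. The cause of their shift was not tested.

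Other genes of the pathway were taken from 5 lists, whose counts stand beside 44.5% of all genes called higher and 35.4% lower in WT, and 44.3% and 34.6% in KO. Of 13 genes of the isoprenoid branch, which uses the same precursors for prenyl groups, ubiquinone and dolichol, 8 rose (61.5%) and 1 fell in WT with stimulation, and 9 rose (69.2%) and 1 fell in KO. Pdss1, which makes the ubiquinone tail, rose by 2.19 in WT and 1.78 in KO, and Rabggtb, a prenyltransferase subunit, by 1.57 and 1.55. Of 9 tested genes of fatty acid synthesis and desaturation that SREBPs also drive, 8 rose (88.9%) and 1 fell in each genotype, among them the desaturase Fads2 (log2 changes 4.59 and 4.53) and Fasn, fatty acid synthase (2.10 and 2.12). Of 15 tested genes of uptake, transport and esters, 4 rose (26.7%) and 8 fell (53.3%) in WT, and 4 rose and 7 fell (46.7%) in KO. Tmem97, a sterol-regulated membrane protein, rose by 3.60 and 3.48 and Scarb1, a lipoprotein receptor, by 2.43 and 2.56. In the other direction, Lipa, the lysosomal acid lipase, fell by 2.18 and 2.21, and Scp2, a sterol carrier, by 1.71 and 1.49. Of 9 genes of SREBP processing and degradation, 3 rose (33.3%) and 2 fell (22.2%) in WT, and 5 rose (55.6%) and 2 fell in KO, Rnf145 rising by 0.78 and 0.66 and Tmub1 falling by 0.63 and 0.60. Of 8 tested LXR partners and oxysterol genes, 2 rose (25%) and 4 fell (50%) in WT, and 3 rose (37.5%) and 4 fell (50%) in KO. Lpcat3, an LXR target that remodels phospholipids, rose by 1.54 and 1.17, and Apoe, the apolipoprotein, fell by 1.60 and 1.36.

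Between genotypes, where 10.2% of all genes were called unstimulated and 17.6% stimulated, the lists held 0 to 2 and 0 to 3 calls each. The share called without stimulation was 22.2% of the fatty acid genes, 12.5% of the LXR and oxysterol genes and 11.1% of the SREBP processing genes. With stimulation it was 37.5% of the LXR and oxysterol genes, 15.4% of the isoprenoid genes and 11.1% of the SREBP processing genes. Without stimulation, Scd2, a stearoyl-CoA desaturase, was higher in KO by 0.71 on the log2 scale (limma adjusted p = 0.001), a call lost without the libraries with Y-linked transcripts (0.0629, log2 difference 0.84). Mbtps1, the first protease that cuts SREBPs, was lower, at -0.32 (limma adjusted p = 0.0116). That call was lost in 6 of 22 other fits (adjusted p 0.0517 to 0.188), among them those without unstimulated WT library 1 (0.0517) or 3 (0.0522). Fads1, a desaturase, was at -0.32 (adjusted p = 0.0384) and lost its call in 16 of 22 other fits, and 0 genes of the isoprenoid and uptake lists were called (4 and 3 at an unadjusted limma p under 0.05). After stimulation, Mbtps2, the second SREBP protease, was lower in KO by -0.43 (limma adjusted p = 0.0056). Dolk, dolichol kinase, and Coq2, an enzyme of ubiquinone synthesis, were higher by 0.37 and 0.26 (adjusted p = 0.0279 and 0.0335), and their calls were lost in 8 and 6 of 22 other fits. Of the LXR and oxysterol list, Arl4c, a small GTPase induced by LXR, was lower in KO in both states. Its RPKM was 66.36, 68.90 and 66.91 in unstimulated WT and 46.50, 50.17 and 56.81 in KO, and 11.36, 9.13 and 10.50 in stimulated WT and 4.77, 4.47 and 4.74 in KO (log2 differences -0.40 and -0.998, limma adjusted p = 0.0118 and 6.72e-06). The unstimulated Arl4c call was lost with a term for Y-linked transcripts (0.0568), without the libraries that hold them (0.213) and without both KO libraries numbered 1 (0.0549). Gpr183, the receptor for an oxysterol that guides lymphocytes, had 16.44, 14.75 and 16.95 RPKM in unstimulated WT and 15.48, 12.93 and 11.89 in KO, which overlap. After stimulation it had 8.85, 9.10 and 9.60 in WT and 24.46, 20.96 and 19.64 in KO, a log2 difference of 1.15 (SE 0.10, limma adjusted p = 8.44e-06). Rxra, the partner of LXR, was lower in stimulated KO cells by -0.52 (adjusted p = 0.0396), a call lost in 11 of 22 other fits. Of the uptake and the fatty acid lists, 0 genes were called between the stimulated genotypes (2 and 3 at an unadjusted limma p under 0.05).

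Near copies of 2 of the enzymes were looked up after the values had been seen. Acat3, the copy of Acat2, was not tested. Idi2, the copy of Idi1, was near 0 without stimulation, at 0.25 RPKM or less. After stimulation it had 4.33, 3.19 and 4.09 RPKM in WT and 1.79, 0.59 and 1.49 in KO, with a log2 difference of -1.12 (limma adjusted p = 0.00107). Idi1 itself had a log2 difference of -0.27 between the stimulated genotypes (adjusted p = 0.121), and the handling of reads that match both copies is not given by the labels.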

How the data were processed

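RNA-seq libraries of sorted Treg cells (12 libraries, 4 groups of 3) used 600 ng of RNA each and a stranded poly(A) kit, per the labels' protocols. The submitters' processing notes name FastQC, STAR, Subread's featureCounts and DESeq2, without versions, and build mm10. Strand setting, multi-mapping rule and annotation are points not given in the sources used here. As their table, the authors deposited 1 RPKM value per gene and library. Divided by the value of 1 read, 100% of values were within 0.01 of a whole number. Of 24421 entries, 27 with a date in place of a symbol (0.185% to 0.284% of reads) were left out. No replicate pair agreed within sampling noise (chi-square per degree of freedom 6.21 to 44.19).

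One limma 3.58.1 model with a mean trend (R 4.3.3) was fitted to log2(RPKM + 1) of the 10406 genes that reached 1 RPKM in 3 libraries, with 4 group means, 8 residual degrees of freedom and 5 contrasts. Benjamini-Hochberg adjustment ran over all genes of a contrast, and the threshold was 0.05. The fit was tested on simulated data with independent noise for each gene and library. The simulation held no shifts shared within a library, no pairing and no imbalance of Y-linked transcripts, so it does not cover them. Same-numbered KO libraries of both states deviated together (correlations 0.274, 0.19 and 0.11), above the bound of 0.1, so numbers were taken to pair KO libraries. WT pairs (0.075, 0.134 and 0.146) did not all reach it. WT libraries of different numbers were at -0.102 to 0.002, and the Y-linked transcripts also went by number, so WT libraries may be paired too. Same-numbered WT and KO libraries did not reach the bound. The reported fit has no block, and blocked values are given where they change a call. Alternatives were other pseudocounts, filters, scalings, limma-voom on the reads, replicate blocks, a term for Y-linked transcripts and fits without libraries.

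The genes and lists were chosen with earlier results of these data known. Some list genes are not reported here. Values per library are given for genes called between genotypes or among the 6 largest responses of a genotype, and from each list of other genes up to 4 called genes with the smallest adjusted p were eligible. Mylip and Abca1 are also given by library. Sequences are from RefSeq (GRCm38.p6).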

Additional observations from a re-analysis of the deposited data

Results flagged for a closer look

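The response to stimulation differed between genotypes, by the limma interaction term, for 3 genes of the other pathway lists, for Batf and for Idi2, and for 0 of the 31 sterol genes. Gpr183 fell in WT by 0.74 and rose in KO by 0.65 on the log2 scale, a difference (KO minus WT) of 1.40 (adjusted p = 0.000174). Arl4c fell in both genotypes, and further in KO, with a difference of -0.60 (adjusted p = 0.0164). Both calls were lost without the 4 libraries with Y-linked transcripts and kept in every other fit. The fit without those 4 libraries has 1 WT library a state and calls fewer of all genes for this term. For Scd2 the difference was -0.71 (adjusted p = 0.0177), with stimulated levels of 351 ± 11.4 RPKM in WT and 352 ± 56.2 in KO (mean ± SD, n = 3), and the call was lost without unstimulated WT library 3 (adjusted p = 0.0521), stimulated KO library 3 (0.0543) or the 4 libraries that hold Y-linked RNA (0.185). For Batf it was -1.08 (adjusted p = 0.0243), lost in 7 of 22 other fits. For Idi2 it was -1.24 (adjusted p = 0.0185), lost with a pseudocount of 0.1 (0.0966), with limma-voom (0.295) and without those 4 libraries (0.234). The cause of these differences was not tested.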

How the results depend on the processing

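Under up to 23 alternatives, 0 of the calls of the 31 genes reversed. In the unstimulated genotype comparison the count of genes higher in KO, 0 as reported, was 3 with median-ratio scaling (Pmvk, Npc1 and Abcg1), 1 with limma-voom, 1 with a replicate block by number, 1 without both KO libraries numbered 1, and 0 to 2 without 1 library. The count lower, 1 as reported, was 0 with median-ratio scaling, 0 over the 6 libraries compared, 0 with the replicate block by number, 0 with a term for Y-linked transcripts, 0 without the libraries that hold them, and 0 to 2 without 1 library. In the stimulated comparison the count higher, 3 as reported, was 5 with limma-voom, 1 without the libraries with Y-linked transcripts, and 1 to 4 without 1 library. The count lower, 1 as reported, was 2 with limma-voom, 0 without the libraries with Y-linked transcripts, 3 without both KO libraries numbered 1, and 0 to 1 without 1 library. For the WT response, 22 to 23 genes were higher and 4 to 5 lower without 1 library, and 20 higher and 3 lower without the libraries with Y-linked transcripts. With median-ratio scaling 6 were lower, Ebp being added (adjusted p = 0.0146). For the KO response, 21 to 24 were higher and 5 to 5 lower. The interaction had 0 calls throughout. The replicate block by number ended the unstimulated call of Soat1 (adjusted p = 0.0533), and the block by genotype and number gave 22 genes higher and 5 lower in the WT response. In the KO response it gave 23 higher and 5 lower, with Nsdhl called (0.0439) and Mvk not (0.0568). The cause of these shifts was not tested. With 3 libraries a group, the standard errors of the log2 differences between genotypes ran from 0.07 for Scap to 0.21 for Sc5d.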
